A study of Mus musculus with 96 samples.

Results

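The genes of sterol and fatty acid synthesis were followed in the brains of 2 inbred mouse strains, NOD/ShiLtJ and C57BL/6J. Of the 30 genes chosen by name, 29 had a transcript cluster with 1 gene symbol (a current or an older one) among the 28310 clusters of the arrays: 17 act in cholesterol synthesis, 8 in fatty acid synthesis and 4 regulate these genes or carry sterols. Acat2, a thiolase at the entry of the sterol pathway, was not analysed here. All animals were males of 14 weeks, 8 of NOD/ShiLtJ and 8 of C57BL/6J, and in each strain 4 were injected with clozapine (4 mg per kg), an antipsychotic, and 4 with vehicle, 3 h before they were killed. The cerebellum was discarded, 1 hemisphere was divided into hindbrain and forebrain, and the other was kept intact and is called whole brain. Each of the 48 samples was hybridized to an Affymetrix 1.1ST array and to a 1.0ST array of the same RNA, so the 2 formats are not independent samples. NOD/ShiLtJ mice weighed 28.1 to 32.8 g and came from litters of 9 to 11, against 22.9 to 26.3 g and litters of 6 to 8 in C57BL/6J mice. Neither range overlapped, so weight, litter size and strain cannot be told apart.

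Cells make cholesterol from acetyl-CoA through mevalonate, the isoprenoid diphosphates, squalene and lanosterol, and fatty acids from acetyl-CoA through malonyl-CoA. SREBP transcription factors, encoded by Srebf1 and Srebf2, drive the genes of both routes: when membranes lack sterol, the factors leave the endoplasmic reticulum, where INSIG proteins otherwise hold them back. Lipoproteins of the blood do not supply the brain with cholesterol, so it makes its own, and myelin, laid down by oligodendrocytes, holds much of it. In bulk tissue a lower level can come from fewer cells of a type or from less RNA per cell, and these cannot be told apart here.

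Values are log2 intensities of the 1.1ST arrays unless the 1.0ST format is named. A difference is on the log2 scale, NOD/ShiLtJ minus C57BL/6J or hindbrain or whole brain minus forebrain, with its standard error (SE). It comes from 1 limma fit over all 48 arrays with 5 surrogate variables, estimated from the arrays to take up variation with no label (their r2 with region was 0.0428 to 0.2023), and a gene was called at a false discovery rate (FDR) below 0.05 over all 28310 clusters. Array medians lay between 6.28 and 6.61. Whole brains of NOD/ShiLtJ mouse DD656 and C57BL/6J mouse BB707 stood at 70.6% and 56.3% of the way from the forebrain to the hindbrain profile, whereas the other 14 lay between 19.5% and 36.9%. Markers of the discarded cerebellum (Pcp2, Cbln3 and Gabra6) averaged above 6 in 10 arrays, of which 5 were hindbrains, and their mean over the hindbrains ran from 4.87 through a median of 5.88 to 9.93 in NOD/ShiLtJ and from 4.70 through 5.06 to 8.68 in C57BL/6J. Defining markers of fat and liver, the other tissues with much lipid synthesis, were near the floor of the arrays, with means of 4.19 for Adipoq, 3.84 for Lep and 4.02 for Alb. Others of these lists were brighter, with Plin1 at 5.17, Apoa1 at 5.27 and Ttr, which choroid plexus also makes, at 11.37.

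In hindbrain, most of the cholesterol genes were higher in NOD/ShiLtJ than in C57BL/6J. Of the 17, 13 were higher and 2 were lower, and the median difference was 0.18, against a median of 0.015 over all clusters. With every mouse in the fit, all 6 genes of the mevalonate steps were higher, by 0.15 to 0.33. Of these, the call of Mvk was lost without any of 5 mice (BB685, BB702, DD657, DD675 and DD678), down to 0.02 without DD675, that of Fdps without BB685, BB687 or DD675 and that of Pmvk without BB686 or DD658. With the fatty acid genes (5 of 8 higher) and the regulators (2 of 4 higher), 20 of the 29 genes were called higher and 2 lower, where 11.8% of all clusters were called higher and 8.69% lower. The largest increase among the 29 was that of Cyp51, the demethylase that acts on lanosterol. Its level in hindbrain ran from 9.06 through a median of 9.19 to 9.38 in NOD/ShiLtJ and from 8.60 through 8.85 to 9.00 in C57BL/6J, so the strains did not overlap, and it was 1.3-fold higher (0.38, SE 0.063, FDR 6.61e-06). Nsdhl, a dehydrogenase of the sterol demethylation that follows, was the other gene whose strains did not overlap in this direction, which 1.7% of all clusters showed. It ran from 10.26 through 10.32 to 10.44 in NOD/ShiLtJ and from 9.94 through 10.02 to 10.16 in C57BL/6J (0.33, SE 0.051, FDR 1.26e-06). Of the lower genes none stood clear of the other strain in hindbrain, where 2.18% of all clusters did.

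**Figure D1:**
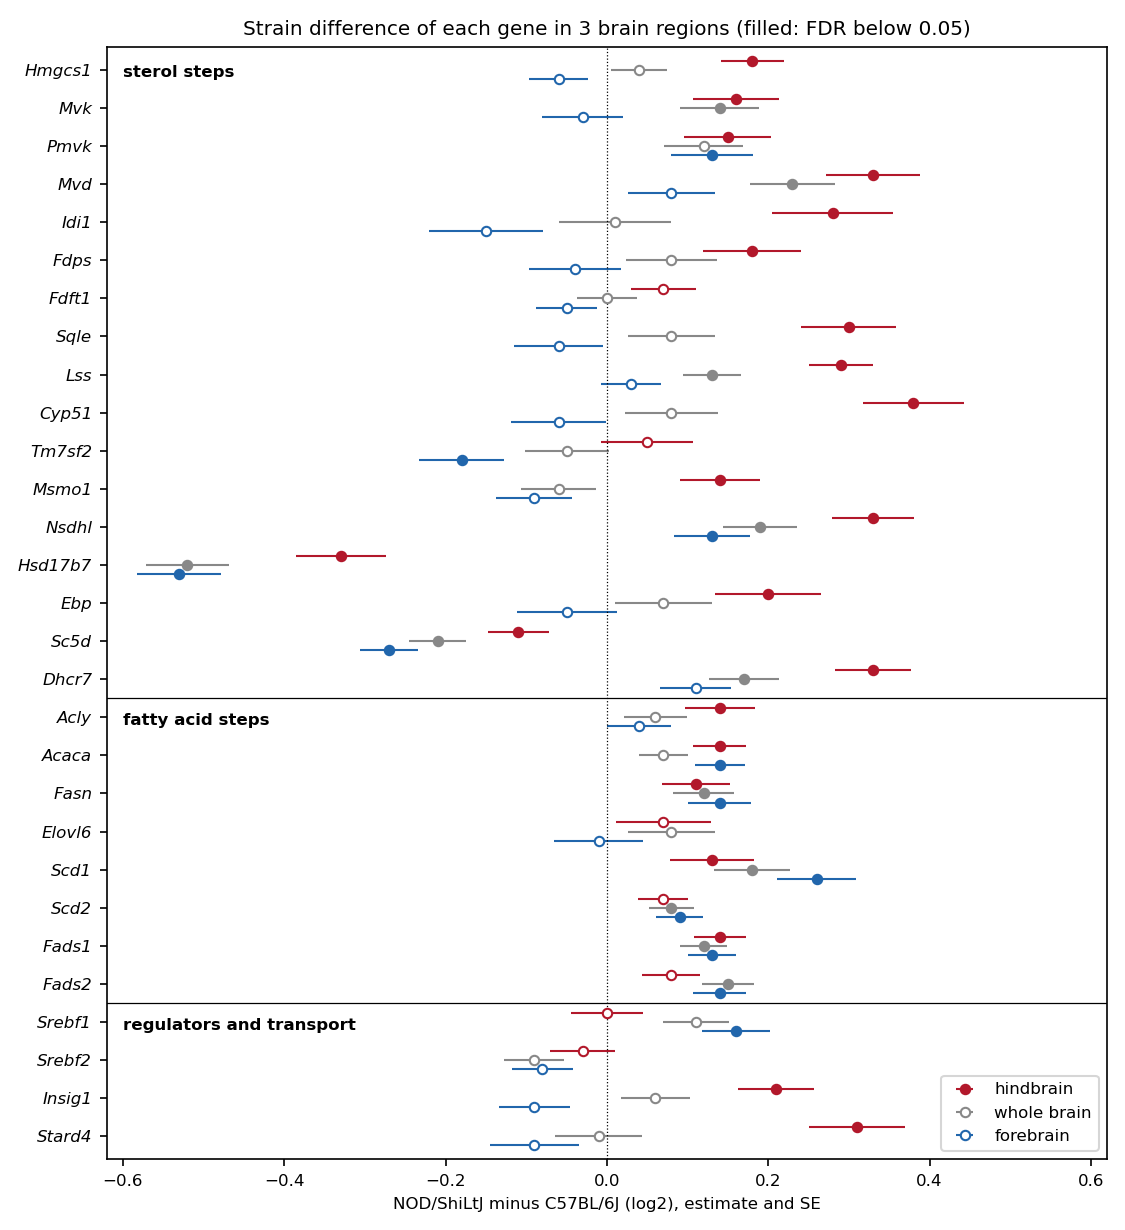
Difference between the strains for each of the 29 genes (log2, NOD/ShiLtJ minus C57BL/6J, estimate with SE), in hindbrain (red), whole brain (grey) and forebrain (blue), with filled points for genes called at an FDR below 0.05. In the sterol block the red points lie to the right of the blue ones for all 17 genes, whereas in the fatty acid block the order varies and Scd1 has the widest spread, 0.13 in hindbrain and 0.26 in forebrain.

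The other sterol genes overlapped between the strains, but most were called by the fit. Sqle, the squalene epoxidase, ran in hindbrain from 9.66 through a median of 9.79 to 9.99 in NOD/ShiLtJ and from 9.44 through 9.59 to 9.71 in C57BL/6J (0.30, SE 0.059, FDR 1.23e-04). Lss, which closes squalene epoxide into lanosterol, ran from 8.46 through 8.67 to 8.95 in NOD/ShiLtJ and from 8.31 through 8.49 to 8.57 in C57BL/6J (0.29, SE 0.040, FDR 2.09e-07). Dhcr7, the reductase that makes cholesterol itself, ran from 8.86 through 9.04 to 9.23 in NOD/ShiLtJ and from 8.67 through 8.79 to 8.86 in C57BL/6J (0.33, SE 0.047, FDR 3.89e-07). For Dhcr7 the lowest NOD/ShiLtJ hindbrain and the highest C57BL/6J hindbrain both read 8.86, so the ranges only touched. Mvd, which decarboxylates mevalonate diphosphate, was higher by 0.33 (SE 0.058) and Idi1, which interconverts the isoprenoid diphosphates, by 0.28 (SE 0.075). The called increases of the other sterol genes were smaller: 0.20 for Ebp, 0.18 for Hmgcs1 and Fdps, 0.16 for Mvk, 0.15 for Pmvk and 0.14 for Msmo1. The call of Msmo1 was lost without BB685, BB708, DD658, DD659 or DD675. The unadjusted hindbrain levels of Mvk averaged 7.68 (SD 0.175) in NOD/ShiLtJ and 7.64 (SD 0.152) in C57BL/6J. Fdft1, the squalene synthase (0.07, FDR 0.177), and Tm7sf2, a sterol reductase (0.05, FDR 0.397), were not called. Over the 29 genes, 14 were called in hindbrain without surrogate variables and 10 in vehicle mice alone, and the 1.0ST arrays gave 12 higher and 3 lower. Of 28310 clusters, 2641 were higher and 2222 lower without surrogate variables. Vehicle mice gave 2015 higher and 1946 lower, and the 1.0ST arrays 3628 and 3139. Of the 17 sterol genes, 9 were called higher and 1 lower in hindbrain without surrogate variables. Without the 10 arrays with cerebellar markers, 15 of the 29 genes were called higher and 1 lower. Among the 17 sterol genes that setting gave 9 higher and 1 lower. It called 2749 of 28310 clusters higher and 2224 lower.

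Hsd17b7 and Sc5d were lower in NOD/ShiLtJ in all 3 regions. Hsd17b7 encodes the ketoreductase that works beside Nsdhl in the same demethylation. Its hindbrain level ran from 8.99 through a median of 9.09 to 9.24 in NOD/ShiLtJ and from 9.20 through 9.45 to 9.76 in C57BL/6J. In whole brain it ran from 8.53 through 8.81 to 8.94 in NOD/ShiLtJ and from 9.17 through 9.28 to 9.47 in C57BL/6J. In forebrain it ran from 8.59 through 8.69 to 8.86 in NOD/ShiLtJ and from 9.09 through 9.22 to 9.35 in C57BL/6J. The strains thus overlapped slightly in hindbrain and were apart in whole brain and forebrain, as in 1.91% and 2.11% of all clusters. The differences were -0.33 (SE 0.056, FDR 8.92e-06) in hindbrain, -0.52 (SE 0.051, FDR 4.06e-11) in whole brain and -0.53 (SE 0.052, FDR 7.80e-11) in forebrain, where the NOD/ShiLtJ level was 0.695 of that in C57BL/6J. Sc5d, a desaturase near the end of the pathway, ran in forebrain from 9.28 through 9.48 to 9.54 in NOD/ShiLtJ and from 9.61 through 9.71 to 9.77 in C57BL/6J, again with the strains apart. Its differences were -0.11 (SE 0.038) in hindbrain, -0.21 (SE 0.035) in whole brain and -0.27 (SE 0.036, FDR 8.08e-08) in forebrain. On the 1.0ST arrays both genes were also lower in each region, with Hsd17b7 at -0.42, -0.39 and -0.44 and Sc5d at -0.12, -0.17 and -0.20 in hindbrain, whole brain and forebrain. Whether probes of these clusters cover bases that differ between the strains was not tested.

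**Figure D2:**
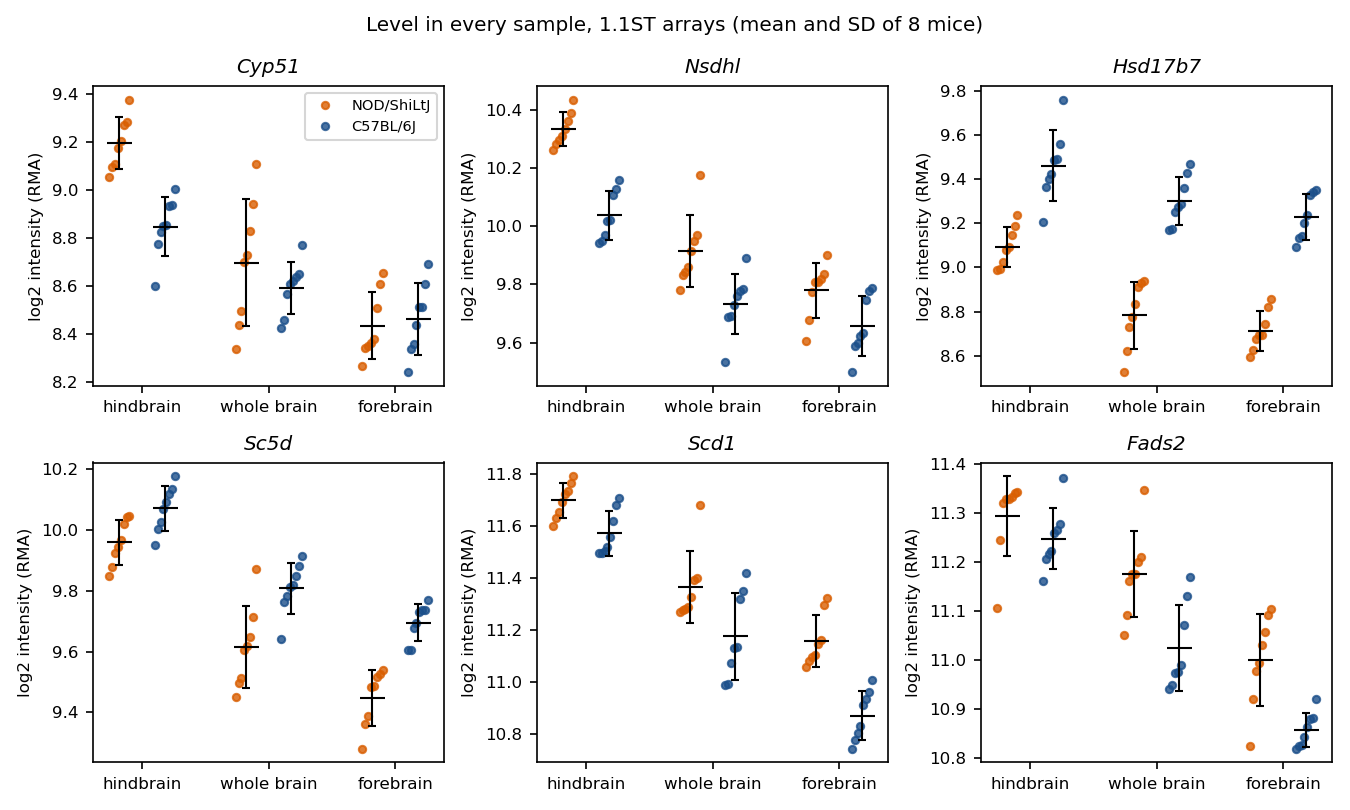
Levels of 6 of the genes (log2 intensity, 1.1ST arrays) in every sample of the 3 regions, with the mean and SD of 8 mice and NOD/ShiLtJ (orange) left of C57BL/6J (blue); within a group the points run sideways in order of value. Cyp51 and Nsdhl are apart between the strains in hindbrain, Hsd17b7 in whole brain and forebrain, and Sc5d and Scd1 in forebrain.

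In forebrain the cholesterol genes did not show the increase seen in hindbrain. Of the 17, 2 were higher (Pmvk, 0.13, and Nsdhl, 0.13), 3 were lower (Hsd17b7, Sc5d and Tm7sf2, the last by -0.18, SE 0.053) and the median difference was -0.05, against 0.006 over all clusters. Cyp51 in forebrain ran from 8.27 through 8.37 to 8.65 in NOD/ShiLtJ and from 8.24 through 8.48 to 8.69 in C57BL/6J, nearly the same range (-0.06, SE 0.059, FDR 0.363). Over all 29 genes, 9 were called higher and 3 lower in forebrain, where 8.98% of all clusters were called higher and 8.76% lower. In whole brain 5 sterol genes were higher (Mvd, Nsdhl, Dhcr7, Mvk and Lss, by 0.13 to 0.23) and 2 lower, with a median difference of 0.08. The whole-brain call of Mvk was lost on leaving out any of 12 of the 16 mice, and in forebrain that of Pmvk was lost without any of 11 and that of Nsdhl without any of 5. Over all 29 genes in whole brain, 10 were higher and 2 lower, where 9.27% of all clusters were called higher and 8.7% lower. No gene was higher in NOD/ShiLtJ without overlap of the strains in whole brain, as 1.38% of all clusters were. For 16 of the 17 sterol genes, the exception being Pmvk, the estimate stood highest in hindbrain, then whole brain, then forebrain, and the same order held for 1 of the 8 fatty acid genes. Whole brain contains both other regions, so this order is a description and was not tested as a trend.

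The dependence on region was tested directly, as the strain difference in hindbrain minus that in forebrain. It was called positive for 9 of the 29 genes and negative for none, where 1.14% of all clusters were called in each direction. Of the 9, 7 were sterol genes (Hmgcs1, Idi1, Sqle, Lss, Cyp51, Msmo1 and Dhcr7) and the other two were Insig1, whose product holds SREBP back, and Stard4, a sterol transfer protein. The estimate was positive for all 17 sterol genes, with a median of 0.24 and a range of 0.02 to 0.45, against a median of 0.011 over all clusters. Cyp51 had the largest value (0.45, SE 0.084, FDR 8.43e-04), followed by Idi1 (0.42, SE 0.099, FDR 0.00943) and Stard4 (0.40, SE 0.078, FDR 0.00114). Sqle (0.35, SE 0.078), Insig1 (0.30, SE 0.063), Lss (0.26, SE 0.052), Hmgcs1 (0.24, SE 0.051), Msmo1 (0.24, SE 0.066) and Dhcr7 (0.22, SE 0.062) followed. Mvd, at 0.26, just missed the threshold (FDR 0.0548). A second cluster of Idi1 gave 0.40 (SE 0.098, FDR 0.0152). The calls of Dhcr7 and Msmo1, with FDRs of 0.043 and 0.0371, were lost on leaving out any of 14 and 12 of the 16 mice. With 1 mouse left out at a time, 7 to 10 genes were called. Vehicle mice alone gave 3, where 199 of 28310 clusters were positive and 346 negative.

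Read within each mouse, the same genes differed more between hindbrain and forebrain in NOD/ShiLtJ. For Hmgcs1, which makes the HMG-CoA that becomes mevalonate, hindbrain minus forebrain ran from 0.12 through a median of 0.25 to 0.45 in NOD/ShiLtJ mice and from -0.05 through 0.01 to 0.17 in C57BL/6J mice, where 4 of 8 were above 0. For Sqle it ran from 0.36 through 0.56 to 0.73 in NOD/ShiLtJ and from 0.18 through 0.26 to 0.42 in C57BL/6J. For Cyp51 it ran from 0.44 through 0.78 to 0.94 in NOD/ShiLtJ and from 0.16 through 0.39 to 0.65 in C57BL/6J. The ranges of the strains overlapped for these and for all other members, for Hmgcs1 between 0.12 and 0.17. Ranges that lay apart, with NOD/ShiLtJ higher, were seen in 0.134% of all clusters. Idi1 ran from 0.43 through 0.80 to 1.04 in NOD/ShiLtJ and from 0.32 through 0.43 to 0.66 in C57BL/6J. Stard4 ran from 0.32 through 0.61 to 1.05 in NOD/ShiLtJ and from 0.13 through 0.26 to 0.46 in C57BL/6J. Insig1 overlapped widely, from 0.36 through 0.84 to 1.04 in NOD/ShiLtJ and from 0.45 through 0.56 to 0.79 in C57BL/6J.

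**Figure D3:**
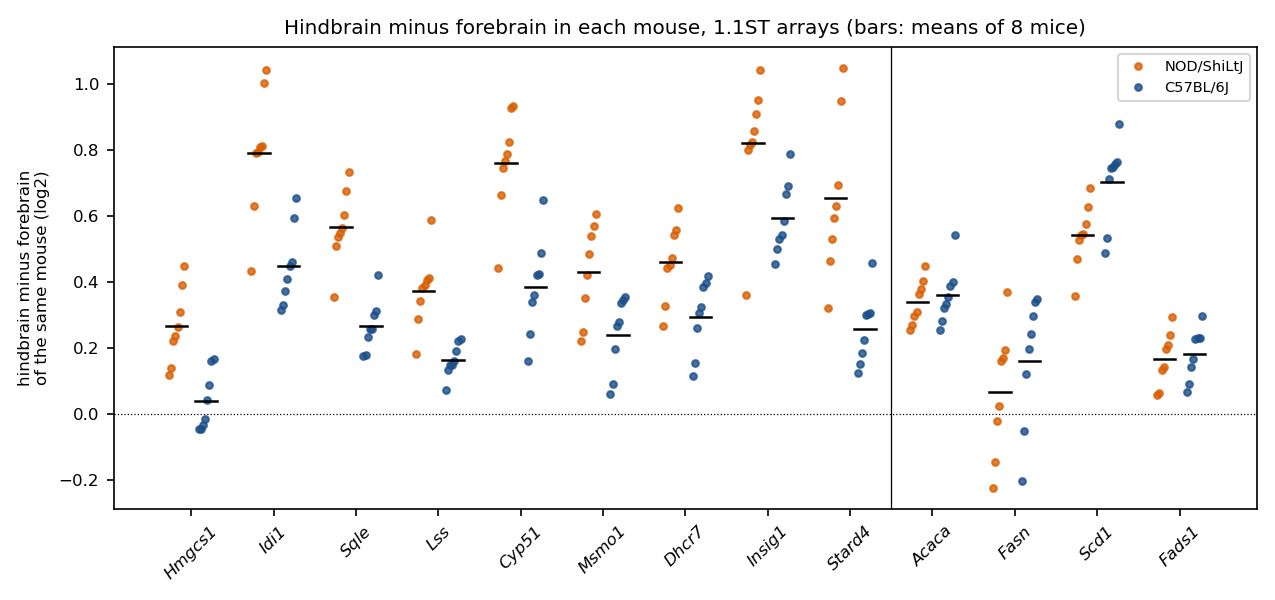
Hindbrain minus forebrain of the same mouse (log2, 1.1ST arrays), 1 point per mouse with bars at the means of 8, for the 9 genes called for the interaction (left of the line) and 4 fatty acid genes (right). Means are higher in NOD/ShiLtJ (orange) than in C57BL/6J (blue) for the 9 genes, and lower for Scd1.

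Fewer genes were called without the surrogate variables and on 1.0ST arrays. For the interaction with hindbrain these arrays gave 6 genes (Hmgcs1, Idi1, Sqle, Lss, Cyp51 and Stard4) with a positive call, where 1.09% of all clusters were, with Cyp51 at 0.31 (SE 0.059) and Hmgcs1 at 0.20 (SE 0.037). Scd1 (-0.13, SE 0.038) and Srebf1 (-0.19, SE 0.037) were called negative there. Insig1 was at 0.12 (FDR 0.211) on that format. Without surrogate variables the 1.1ST estimates stayed close (Cyp51 0.38, Idi1 0.34, Hmgcs1 0.23, Sqle 0.30) but had larger errors, and only Stard4 was called (0.40, SE 0.102, FDR 0.0331), where 0.452% of all clusters were. Without the 10 arrays with cerebellar markers, 8 genes were called, 7 of them shared with the 9. Without the forebrain of mouse DD676, which read low for several members, 8 were called, 7 of them shared. For the strain difference in whole brain minus that in forebrain, limma called none of the 29 genes and 0% of all clusters. There 4 genes had an unadjusted p below 0.05, and mixed models per cluster called none either.

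**Figure D4:**
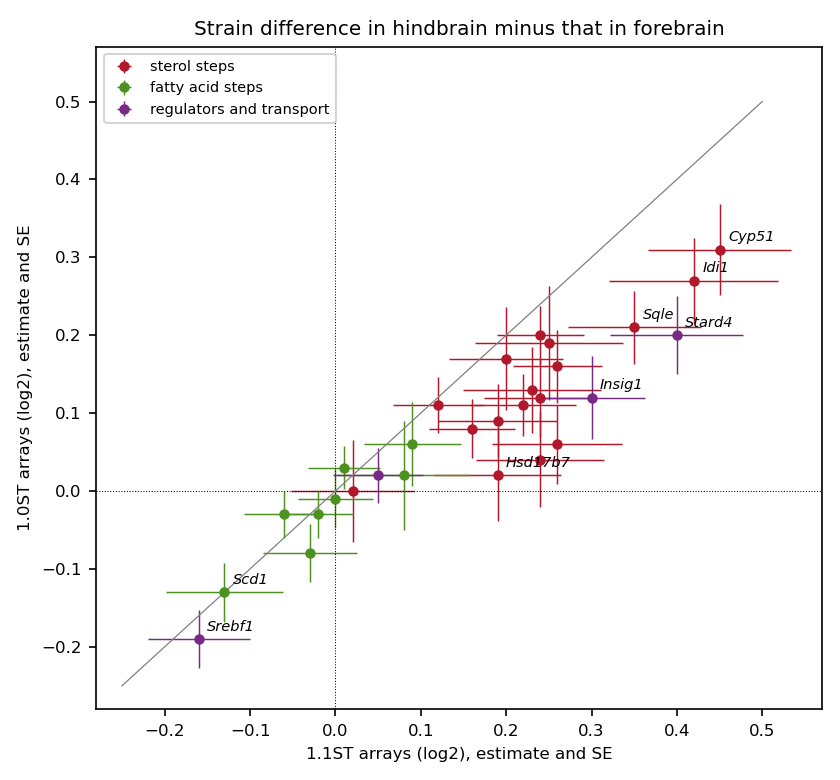
Strain difference in hindbrain minus that in forebrain (log2, estimate with SE) for each gene on the 1.1ST (horizontal) and 1.0ST (vertical) arrays of the same RNA, with the line of equality in grey. Sterol genes (red) are at or above 0 on both axes and mostly below the line, fatty acid genes (green) lie around 0, and Srebf1 and Scd1 are below 0 on both.

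Promoters of 7 genes are shown because these genes stand for the 3 patterns: Hmgcs1, Idi1, Cyp51 and Insig1 for a strain difference that depended on region, Hsd17b7 and Sc5d for a lower level in NOD/ShiLtJ in all 3 regions, and Fasn for the fatty acid genes. Each is the stretch of 250 bases before the start site in the RefSeq annotation of GRCm38.p6, the reference genome of C57BL/6J, so bases of NOD/ShiLtJ may differ. They are chr13:119690101-119690350 (plus strand) for Hmgcs1, chr13:8885356-8885605 (plus) for Idi1, chr5:4104698-4104947 (minus) for Cyp51, chr5:28071162-28071411 (plus) for Insig1, chr1:169969206-169969455 (minus) for Hsd17b7, chr9:42264301-42264550 (minus) for Sc5d and chr11:120824548-120824797 (minus) for Fasn. Capitals mark the CCAAT box, which reads ATTGG on the other strand, and the letters TCACNCCA, the core of a sterol regulatory element, bound by SREBP.
Hmgcs1: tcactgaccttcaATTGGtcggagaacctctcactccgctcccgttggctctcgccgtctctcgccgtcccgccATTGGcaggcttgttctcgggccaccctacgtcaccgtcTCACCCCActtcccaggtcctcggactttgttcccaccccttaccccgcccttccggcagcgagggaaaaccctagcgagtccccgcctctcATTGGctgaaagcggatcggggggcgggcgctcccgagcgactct
Idi1: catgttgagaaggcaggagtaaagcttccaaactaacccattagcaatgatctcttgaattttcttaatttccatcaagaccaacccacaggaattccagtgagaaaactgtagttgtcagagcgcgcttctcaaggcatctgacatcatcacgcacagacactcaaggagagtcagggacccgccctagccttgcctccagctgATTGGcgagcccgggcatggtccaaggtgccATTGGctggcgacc
Cyp51: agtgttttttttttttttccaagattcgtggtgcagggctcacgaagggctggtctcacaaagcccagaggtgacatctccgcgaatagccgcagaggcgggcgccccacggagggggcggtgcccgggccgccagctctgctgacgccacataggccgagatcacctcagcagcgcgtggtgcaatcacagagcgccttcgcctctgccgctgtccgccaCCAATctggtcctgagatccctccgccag
Insig1: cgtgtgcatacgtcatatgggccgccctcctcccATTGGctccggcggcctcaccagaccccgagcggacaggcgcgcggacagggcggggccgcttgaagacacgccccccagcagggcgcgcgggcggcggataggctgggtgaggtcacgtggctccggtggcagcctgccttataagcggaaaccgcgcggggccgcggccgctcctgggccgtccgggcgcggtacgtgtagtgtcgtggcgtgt
Hsd17b7: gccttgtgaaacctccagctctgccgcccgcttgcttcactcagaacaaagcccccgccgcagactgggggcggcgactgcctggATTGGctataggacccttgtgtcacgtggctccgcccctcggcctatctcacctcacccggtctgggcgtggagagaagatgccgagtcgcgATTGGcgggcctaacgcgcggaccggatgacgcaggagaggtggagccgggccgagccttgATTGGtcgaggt
Sc5d: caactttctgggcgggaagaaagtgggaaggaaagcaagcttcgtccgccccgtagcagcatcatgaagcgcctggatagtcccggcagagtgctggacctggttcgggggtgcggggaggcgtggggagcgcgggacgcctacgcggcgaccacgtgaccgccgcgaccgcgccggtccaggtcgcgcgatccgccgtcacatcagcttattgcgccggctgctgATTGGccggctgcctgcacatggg
Fasn: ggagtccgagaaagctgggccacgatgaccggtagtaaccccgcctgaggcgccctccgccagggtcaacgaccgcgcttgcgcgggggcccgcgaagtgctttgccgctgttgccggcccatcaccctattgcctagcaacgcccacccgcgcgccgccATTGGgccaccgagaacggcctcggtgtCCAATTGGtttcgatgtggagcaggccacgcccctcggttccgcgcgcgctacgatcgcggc
Of the 29 genes, 22 had a promoter in the table, 27 promoters in all. CCAAT, read on both strands, was in 19 of the 27 (70.4%), against 33.8% of all 32851 promoters of this length. GGGCGG, a GC box on either strand, was in 20 (74.1%), against 32.7%. TCACNCCA was in 3 (11.1%), against 3.67%. The last stood at -137 in Hmgcs1, -177 in Msmo1 and -162 in Srebf2, counted from -1 at the base before the start, and overlapped neither other motif. In Cyp51 a CCAAT box stood at -29 and in Idi1 at -45 and -14. A match describes the letters of this window, and the data do not show binding.

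Most genes of fatty acid synthesis were higher in NOD/ShiLtJ by small amounts. Of the 8, 5 were higher in hindbrain, 5 in whole brain and 6 in forebrain, and none was lower. Their median differences were 0.12, 0.10 and 0.13 in these regions. Of all clusters, 11.8% were called higher and 8.69% lower in hindbrain. The shares were 9.27% and 8.7% in whole brain and 8.98% and 8.76% in forebrain. Markers of other cells also differed. Of 10 astrocyte markers 4 were higher and 2 lower in hindbrain, 3 higher and 1 lower in whole brain and 3 higher and 3 lower in forebrain, and their mean level had medians of 10.73 in NOD/ShiLtJ and 10.62 in C57BL/6J in hindbrain and of 10.28 and 10.19 in the same order in forebrain. Of 8 neuronal markers, with medians of 11.59 in NOD/ShiLtJ and 11.48 in C57BL/6J in hindbrain, 4 were higher and 1 lower there. Their part in the differences of the fatty acid genes was not tested. Fads1, a desaturase of polyunsaturated fatty acids, was higher by 0.14 (SE 0.032), 0.12 (SE 0.029) and 0.13 (SE 0.030) in hindbrain, whole brain and forebrain, and these calls held with any 1 mouse left out. Fasn, the synthase that builds palmitate, was higher by 0.11 (SE 0.042) in hindbrain, 0.12 (SE 0.038) in whole brain and 0.14 (SE 0.039) in forebrain. The hindbrain call of Fasn was lost without any of 10 of the 16 mice, down to 0.01 without DD675, and its whole-brain call without BB702, BB703 or DD657. Its hindbrain levels averaged 10.30 ± 0.232 in NOD/ShiLtJ and 10.28 ± 0.178 in C57BL/6J (SD, n = 8 each). Acaca, which makes malonyl-CoA, was higher by 0.14 (SE 0.033) in hindbrain and 0.14 (SE 0.031) in forebrain, with 0.07 (FDR 0.0745) in whole brain. A second cluster of Acaca was called in hindbrain alone (0.20, SE 0.048, FDR 0.00137). It gave 0.11 (FDR 0.054) in whole brain and 0.08 (FDR 0.2) in forebrain. Acly, the source of cytosolic acetyl-CoA for both routes, was called in hindbrain alone (0.14, SE 0.043), a call lost without BB702, BB703, DD657, DD675 or DD678 and down to 0.05 without DD675. Elovl6, which lengthens palmitate, was not called between the strains in any region.

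Among the fatty acid genes, strains that did not overlap were seen for the stearoyl-CoA desaturases, which make oleate, in forebrain. Scd1 ran there from 11.06 through a median of 11.13 to 11.32 in NOD/ShiLtJ and from 10.74 through 10.87 to 11.01 in C57BL/6J. Scd2 ran from 12.25 through 12.29 to 12.42 in NOD/ShiLtJ and from 12.10 through 12.21 to 12.23 in C57BL/6J. In both the strains did not overlap in forebrain, which 1.38% of all clusters showed in this direction. The difference of Scd1 was 0.13 (SE 0.052) in hindbrain, 0.18 (SE 0.047) in whole brain and 0.26 (SE 0.049, FDR 4.46e-05) in forebrain, 1.2-fold in the last, and its hindbrain call was lost without any of 8 of the 16 mice. That of Scd2 was 0.07, 0.08 and 0.09, of which the first was not called (FDR 0.0802). The whole-brain call of Scd2 was lost without any of 6 of the 16 mice and its forebrain call without DD678. Fads2, the desaturase that opens the polyunsaturated route, was higher by 0.15 (SE 0.032) in whole brain and 0.14 (SE 0.033) in forebrain, with 0.08 (FDR 0.0747) in hindbrain. The interaction of strain and region was called for none of the 8 genes by limma on these arrays or by the mixed models, and its estimates ran from -0.13 to 0.09, with no unadjusted p below 0.05 in limma and 1 in the mixed models.

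The regulators did not move as a group. Insig1 was higher in NOD/ShiLtJ hindbrain by 0.21 (SE 0.047, FDR 6.46e-04), with 0.06 in whole brain and -0.09 in forebrain, neither called. Its hindbrain level ran from 10.78 through 11.01 to 11.14 in NOD/ShiLtJ and from 10.69 through 10.79 to 11.00 in C57BL/6J. Stard4 was higher in hindbrain by 0.31 (SE 0.059, FDR 5.71e-05), running from 7.90 through 8.03 to 8.33 in NOD/ShiLtJ and from 7.39 through 7.74 to 7.93 in C57BL/6J. These ranges overlapped in a few mice. Srebf1, the SREBP gene tied mainly to fatty acid synthesis, was higher in forebrain alone (0.16, SE 0.042, FDR 0.00341), with 0.11 (FDR 0.0509) in whole brain and 0.00 in hindbrain. Srebf2, tied mainly to cholesterol synthesis, was not called in any region (-0.03, -0.09 and -0.08 in hindbrain, whole brain and forebrain).

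Between the regions themselves, nearly all of the 29 genes were higher in hindbrain than in forebrain. The fit called 26 higher and 1 lower, where 27.5% of all clusters were called higher and 19.7% lower. Within mice, 21 genes (11 sterol, 7 fatty acid and 3 regulators) were above their own forebrain in 16 of 16 mice, which 12.2% of all clusters were. Insig1 had the largest difference (0.58, SE 0.044, FDR 7.43e-15), followed by Elovl6 (0.53, SE 0.055), Ebp, a sterol isomerase (0.52, SE 0.062), and Scd1 (0.49, SE 0.049). Hmgcs1 (0.08, SE 0.036) and Fads1 (0.13, SE 0.030) were among the smallest called. In the fits with surrogate variables, Hmgcs1 was at -0.08 on the 1.0ST arrays and at -0.04 (FDR 0.27) in C57BL/6J alone. Its unadjusted means within mice were 0.25 in NOD/ShiLtJ and 0.07 in C57BL/6J on the 1.0ST arrays. On the 1.1ST arrays they were 0.27 and 0.04 in the same order. Without mouse DD676, 18 genes were called, and the calls of Fads1, Fdft1, Hmgcs1, Hsd17b7, Idi1 (0.22), Msmo1, Mvk, Scd2 and Tm7sf2 were lost. Pmvk (0.07, FDR 0.126) and Fasn (0.07, FDR 0.059) were not called by the fit. Pmvk was nonetheless among the 21 genes above forebrain in every mouse, with unadjusted means of 0.25 in NOD/ShiLtJ and 0.23 in C57BL/6J. Srebf2 was the exception in direction. It was lower in hindbrain by -0.16 (SE 0.038, FDR 1.81e-04) and below forebrain in all 16 mice, from -0.50 to -0.03 in NOD/ShiLtJ and from -0.40 to -0.04 in C57BL/6J. The surrogate variables take up part of the region differences: without them Idi1 was higher by 0.62 (SE 0.067) rather than 0.39 (SE 0.070) and Insig1 by 0.71 (SE 0.041). On the 1.0ST arrays, with their own surrogate variables, 10 genes were called, and Idi1 was at 0.14 (FDR 0.124).

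**Figure D5:**
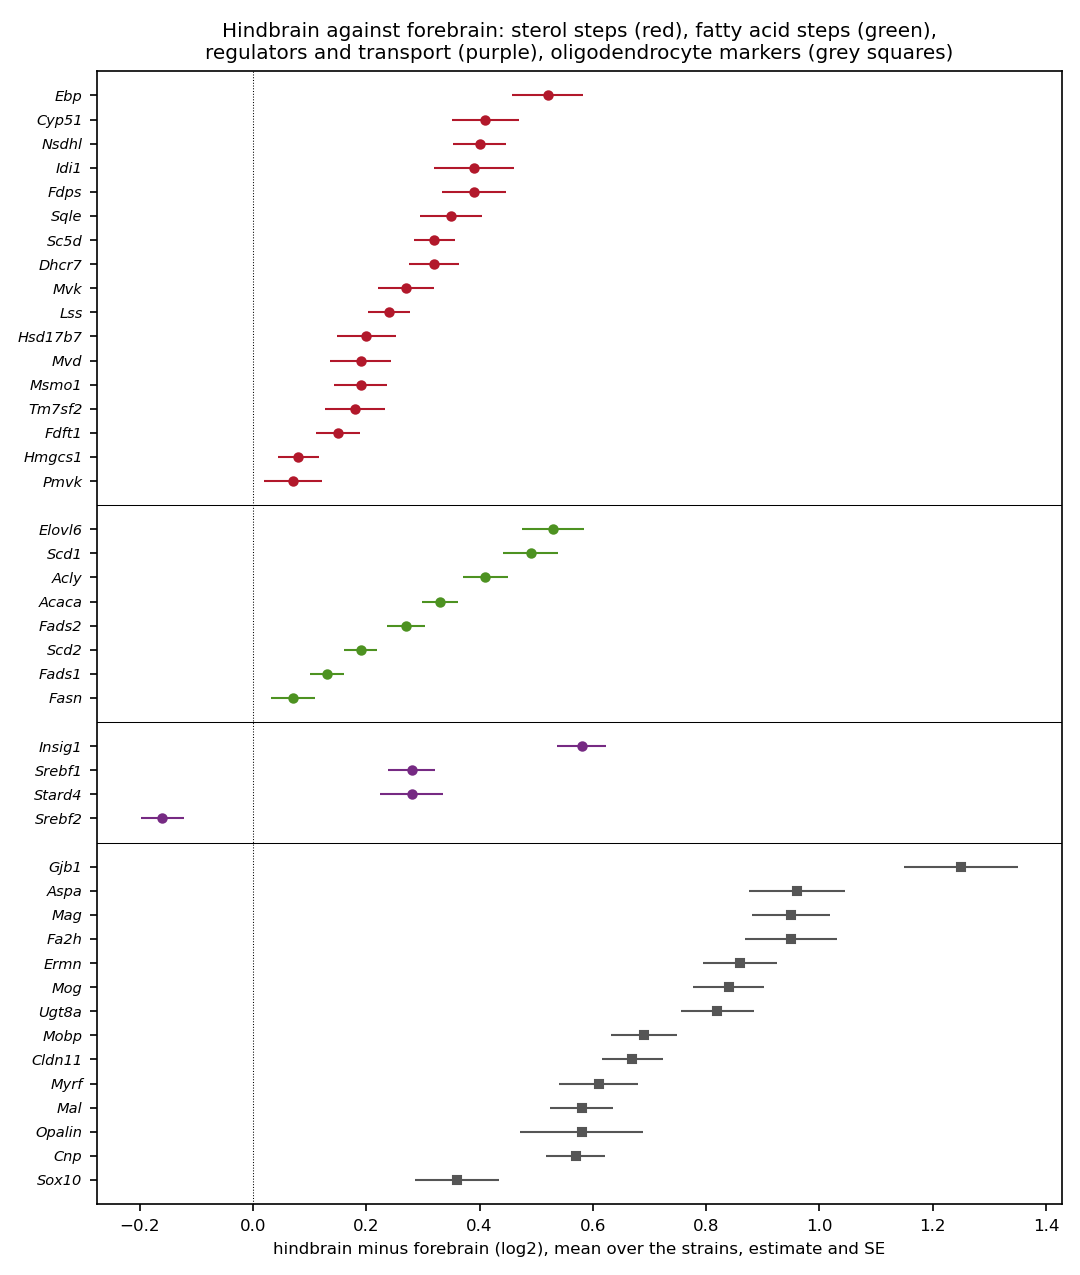
Hindbrain minus forebrain (log2, mean over the strains, estimate with SE) for the sterol (red), fatty acid (green) and regulator and transport genes (purple) and, as grey squares, 14 markers of oligodendrocytes and myelin. All genes but Srebf2 lie right of 0, and the markers reach higher values than the genes.

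Markers of oligodendrocytes moved with the same regions. All 14 were higher in hindbrain than in forebrain, by 0.36 (Sox10) to 1.25 (Gjb1) with a median of 0.76. Their mean level ran in hindbrain from 9.79 through 10.12 to 10.25 in NOD/ShiLtJ and from 9.80 through 10.07 to 10.19 in C57BL/6J, and in forebrain from 9.04 through 9.22 to 9.39 and from 8.91 through 9.04 to 9.31 in the same order. Their part in the region differences of the lipid genes was not tested. Of 10 astrocyte markers 8 were higher and 2 lower in hindbrain than in forebrain, and all 5 markers of choroid plexus were lower. Between the strains 6 of the 14 oligodendrocyte markers were higher in hindbrain, 2 in whole brain and 3 in forebrain, with none lower, and their part in the strain differences was not tested either. Of all clusters, 11.8% were called higher in hindbrain, 9.27% in whole brain and 8.98% in forebrain. In vehicle mice alone 2 of the 14 markers were higher and 1 lower in hindbrain, 3 higher in whole brain and 9 higher in forebrain. The strain by hindbrain interaction was called for none of the 14 by limma or the mixed models, with none at an unadjusted p below 0.05, estimates between -0.11 and 0.09 and a median of 0.00. In vehicle mice alone it was called negative for 2 of them, and 8 of the 14 had an unadjusted p below 0.05 in limma. With all mice in the fit, 1.14% of all clusters were called negative for this interaction. So were 1 of 5 choroid plexus markers (Ttr, lower in NOD/ShiLtJ hindbrain by -1.94, SE 0.446), 1 of 8 neuronal and 1 of 3 oligodendrocyte precursor markers. None of the 10 astrocyte, 8 microglial and 7 endothelial markers was called. Their part in the interaction of the lipid genes was not tested.

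Whole brain lay nearer to forebrain. There 12 of the 29 genes were higher than in forebrain and none lower, where 8.48% of all clusters were called higher and 5.89% lower. They were 7 of the 8 fatty acid genes (all but Fasn, by 0.07 to 0.21), 3 regulators (Insig1 0.16, Srebf1 0.15 and Stard4 0.13) and 2 sterol genes (Dhcr7 0.11 and Sc5d 0.08). Without the forebrain of mouse DD676, 4 genes were called, where 849 of 28310 clusters were higher and 117 lower.

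Over both strains, none of the 29 genes was called for clozapine. With 1 mean per mouse over its 3 regions, limma called 0 members and 0.0424% of all clusters, 4 members had an unadjusted p below 0.05, and leaving out any mouse gave 0 members as well. Insig1 came nearest (0.12, SE 0.031, FDR 0.096). Its mouse means were 10.53, 10.53, 10.62 and 10.65 after clozapine against 10.46, 10.46, 10.50 and 10.55 after vehicle in NOD/ShiLtJ, and 10.47, 10.53, 10.60 and 10.60 after clozapine against 10.34, 10.37, 10.41 and 10.47 after vehicle in C57BL/6J. The treatments overlapped by 1 vehicle mouse in NOD/ShiLtJ and met at 10.47 in C57BL/6J. Hmgcs1 was at 0.06 (FDR 0.404) and Hsd17b7 at 0.09 (FDR 0.154), and the fatty acid genes lay between -0.08 and -0.01. In NOD/ShiLtJ the treatments did not overlap for Fasn, with mouse means of 10.08 to 10.26 after clozapine against 10.33 to 10.41 after vehicle. The same held there for Srebf2, with 9.76 to 9.86 after clozapine against 9.97 to 10.03 after vehicle. Fdps was also apart in NOD/ShiLtJ, with 8.52 to 8.56 after clozapine against 8.6 to 8.69 after vehicle. In C57BL/6J Hsd17b7 was apart, with 9.36 to 9.4 after clozapine against 9.24 to 9.32 after vehicle. Fasn and Srebf2 overlapped in C57BL/6J. Fasn had 10.17 to 10.25 after clozapine against 10.04 to 10.31 after vehicle, and Srebf2 10.01 to 10.06 after clozapine against 9.89 to 10.16 after vehicle. The share of all clusters with treatments apart in groups of 4 was not counted. Whether the clozapine difference depended on strain was not tested. All 5 hindbrains with cerebellar markers above 6 came from clozapine mice, and the 3 markers had clozapine differences with a median of 1.07, none called. Their part in the clozapine values was not tested.

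Other genes of the pathways were read from lists written from general knowledge. Over all clusters, 11.8% were higher and 8.69% lower in hindbrain and 8.98% higher and 8.76% lower in forebrain. Of 18 further genes of sterol synthesis and SREBP control, 5 were higher and 1 lower in NOD/ShiLtJ hindbrain, and 1 higher and 4 lower in forebrain. Dhdds, a subunit of the enzyme that makes the dolichol precursor from the isoprenoid diphosphates, was lower in all 3 regions (-0.35, -0.38 and -0.35 in hindbrain, whole brain and forebrain). The interaction was called positive for 3 of the 18, named here after their values were seen: Rdh11, a retinol dehydrogenase (0.27, SE 0.062), Spring1, which assists the cleavage of SREBP (0.27, SE 0.065), and Insig2, a relative of Insig1 (0.19, SE 0.055). Of 31 further genes of fatty acid synthesis, 10 were higher and 2 lower in hindbrain and 7 higher and 2 lower in forebrain, with no interaction called. Me1, the malic enzyme that supplies NADPH, was higher by 0.34, 0.30 and 0.30, and Slc25a1, which exports citrate from mitochondria, by 0.30, 0.28 and 0.19 in hindbrain, whole brain and forebrain. Thrsp, a regulator of lipid synthesis, was higher by 0.30, 0.23 and 0.16, and Oxsm, of the mitochondrial fatty acid route, lower (-0.37, -0.28 and -0.32). Of 16 genes of cholesterol export and turnover, 3 were higher and 2 lower in hindbrain and 6 higher in forebrain, with Lcat, which esterifies cholesterol, higher by 0.16, 0.22 and 0.16 and Abca2, a lipid transporter, by 0.12, 0.15 and 0.19 in hindbrain, whole brain and forebrain. Among them the interaction was called for Cyp46a1 alone, the hydroxylase by which neurons dispose of cholesterol, and it was negative (-0.35, SE 0.082), with -0.28 in hindbrain and 0.07 in forebrain.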

How the data were processed

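RNA of 48 samples (3 regions of 16 mice) was hybridized to 2 Affymetrix array formats, 1.1ST and 1.0ST. Per the labels and methods, the authors summarized probes to transcript clusters and normalized them by RMA in Affymetrix Expression Console 1.1, and deposited log2 intensities. RMA sets each format on 1 scale, so levels of different genes also carry probe effects and are not compared. limma 3.58.1 (R 4.3.3; statmod 1.5.0) fitted the 1.1ST values with 6 means (strain by region), clozapine, 5 surrogate variables (each refined on 1000 clusters) and a random block for the mouse, with a consensus correlation of 0.031. Array batch and hemisphere are not in the labels used here. Residuals of the same mouse correlated at 0.0745 (hindbrain and forebrain), 0.0405 (whole brain and forebrain) and -0.0188 (hindbrain and whole brain), against -0.0016 between mice, and samples are paired because they come from 1 animal. Clozapine was tested on 1 mean per mouse. All tests were two-sided. The FDR was computed as in the study's methods: the expected number of false calls, with the share of unchanged clusters set at 2 times the share of p above 0.5, over the number of calls. Mixed models used lme4 1.1.37 and lmerTest 3.1.3. The number of arrays limits the precision.

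Members and lists were chosen with earlier results of these data known. A gene with several clusters (Idi1, Acaca) was read from the one with the highest mean. All members are named, with up to 3 genes in each direction from other lists called in all 3 regions, and up to 3 markers per list. Of all clusters 21207 carry 1 symbol. Alternatives were the 1.0ST arrays, other surrogate variables, no block, mixed models, another adjustment, a filter on dim clusters (mean above 5), centred arrays, vehicle mice, the hour of kill, second clusters and each mouse left out. Leaving out arrays with cerebellar markers above 6, the forebrain of DD676 or 2 whole brains, and the 1.0ST arrays without surrogate variables, were chosen after seeing the data.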

Additional observations from a re-analysis of the deposited data

Results flagged for a closer look

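In groups of 8 mice a mouse far from the others was sought for the 29 genes in 6 groups each, and 12 of 174 groups had one, where chance gives about 5% of groups. Of these, 5 were the forebrain of NOD/ShiLtJ mouse DD676, which was the lowest of its group for Sqle (9.09, next 9.23), Lss (8.07, next 8.29), Dhcr7 (8.33, next 8.55), Acaca (9.13, next 9.28) and Srebf1 (7.14, next 7.66). On the 1.0ST arrays of the same RNA this sample lay within the range of the other 7 mice for all 5 genes, for example at 9.35 for Srebf1, where the others ran from 9.26 to 9.52. The whole brain of NOD/ShiLtJ mouse DD656, the one nearest to the hindbrain profile, was the highest for Acaca (9.54) and Scd1 (11.68). The other samples of this kind were the NOD/ShiLtJ hindbrains of DD657 for Ebp (8.55) and DD678 for Fads2 (11.11), the NOD/ShiLtJ forebrain of DD678 for Scd2 (12.42), and the C57BL/6J forebrains of BB703 for Tm7sf2 (7.87) and BB686 for Fads1 (11.05). DD678 was also above the limit for cerebellar markers in both samples.

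The strain difference in hindbrain was larger than that in forebrain, by the interaction in the limma fit, for Hmgcs1 (0.24), Idi1 (0.42), Sqle (0.35), Lss (0.26), Cyp51 (0.45), Msmo1 (0.24), Dhcr7 (0.22), Insig1 (0.30) and Stard4 (0.40).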

How the results depend on the processing

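With the replicate block removed, the counts of genes called between the strains (22 in hindbrain, 12 in whole brain and 12 in forebrain), for the interactions (9 with hindbrain, 0 with whole brain) and between regions (27 and 12) were the same, and no called difference of a gene was lost. A random block over all arrays gave 1 gene for clozapine (Insig1, 0.13) in place of 0. That fit called 294 of 28310 clusters higher and 534 lower, against 6 and 6 with 1 mean per mouse. Without surrogate variables 14 genes were called between the strains in hindbrain, 7 in forebrain and 1 for the interaction with hindbrain, and 21 between whole brain and forebrain. For the last, 3493 of 28310 clusters were higher and 2167 lower, against 2400 and 1668 with surrogate variables. The 1.0ST arrays without them gave 9 in hindbrain, 6 in whole brain, 4 in forebrain and 0 for the interaction. On the 1.0ST arrays with them, 10 were called between hindbrain and forebrain and 2 between whole brain and forebrain. There the median difference between the strains in hindbrain over the sterol genes was 0.09, and the medians between hindbrain and forebrain were 0.10 (sterol), 0.13 (fatty acid) and 0.03 (regulators, 0.44 on the 1.1ST arrays without surrogate variables). Surrogate variables from the residuals gave 25 between whole brain and forebrain, where 5201 of 28310 clusters were higher and 3682 lower. With clusters of a mean above 5, 14 were called for the interaction, 17 between hindbrain and forebrain and 4 between whole brain and forebrain. Of the 19458 clusters kept there, 679 were positive and 575 negative for the interaction, against 323 and 324 of 28310 without this filter. Between hindbrain and forebrain 4746 of those kept were higher and 3610 lower, and between whole brain and forebrain 716 and 142. Vehicle mice alone gave 10 in hindbrain, 7 in forebrain and 3 for the interaction. Of 28310 clusters they gave 2015 higher and 1946 lower in hindbrain and 1757 and 1591 in forebrain. For the interaction 199 were positive and 346 negative. Without the arrays with cerebellar markers, 23 were called between whole brain and forebrain, where 3586 of 28310 clusters were higher and 2342 lower. With neither these arrays nor surrogate variables 13 were called in hindbrain, 6 in whole brain, 7 in forebrain, 4 for the interaction and 23 between whole brain and forebrain, and without the forebrain of DD676 4 in the last. On the 1.0ST arrays with their own surrogate variables the estimate changed sign for Hmgcs1 (-0.08) and Mvd (-0.00) between hindbrain and forebrain. The same held there for Dhcr7 (-0.01) between whole brain and forebrain. The unadjusted means within mice on that format were positive in NOD/ShiLtJ and C57BL/6J, in this order: 0.25 and 0.07 for Hmgcs1, 0.14 and 0.12 for Mvd and 0.15 and 0.08 for Dhcr7. With clusters of a mean above 5 the estimate changed sign for Tm7sf2 (-0.01) between hindbrain and forebrain. Leaving out each mouse gave 17 to 23 (hindbrain), 9 to 16 (whole brain), 10 to 13 (forebrain), 7 to 10 and 0 to 0 (interactions with hindbrain and whole brain), 18 to 29 and 4 to 16 (hindbrain and whole brain against forebrain) and 0 to 0 (clozapine). The 4 genes between whole brain and forebrain came without mouse DD676. Centring the arrays took the share of higher calls among all clusters between hindbrain and forebrain to 40.5%, against 58.2%, and between whole brain and forebrain to 41.2%, against 59%. The causes were not tested.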
